A study of Homo sapiens with 32 samples.

Results

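Transcripts of 41 genes of glycolysis and of the cellular response to low oxygen were followed through the growth of esophageal epithelial spheroids. The genes were taken by symbol from the deposited table of 19345 gene symbols, and all 41 were found there. They comprise 16 glycolytic enzymes, 4 regulators of glycolytic flux, 4 genes of the oxygen sensor, 5 genes of secreted or membrane proteins and of pH control, 7 genes of mitophagy, stress and lipid storage, and 5 genes of collagen hydroxylation, histone demethylation and transcription. The values are TPM (a share of each library's transcripts, normalised for transcript length and scaled to a fixed total), so the number of reads behind a value is unknown and precision rests on the spread between libraries.

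All cultures were of EPC2, a line of esophageal keratinocytes of human origin that divides without limit because it carries telomerase, and its genotype is labelled as wild type in every group. The libraries came from 6 samples of spheroids at day 11 (D11) that had received interleukin 13 (IL-13, a type 2 cytokine) at 20 ng/ml from day 3, 7 samples of untreated D11 spheroids, 9 samples of untreated day 3 (D3) spheroids and 10 samples of monolayer cells taken at day 0 before seeding. Spheroids grew in droplets of Matrigel in a calcium-supplemented keratinocyte medium, so monolayers differ from spheroids in matrix as well as in shape and time, and the medium of the monolayers is not given in the sources used here. All groups are 1 cell line, the labels place the samples in 2 independent experiments (batch 1 and batch 2), and no animals or donors stand behind the replicates. In such bulk RNA, more cells that express a gene and more RNA of that gene per cell cannot be told apart.

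Glycolysis splits glucose into pyruvate, and lactate dehydrogenase then turns pyruvate into lactate, which lets the pathway run without oxygen. The oxygen sensor consists of prolyl hydroxylases (EGLN genes), which use oxygen to mark the alpha subunits of the hypoxia-inducible factors (HIF1A and EPAS1) for destruction. When oxygen is short the subunits persist, enter the nucleus and bind short DNA elements near genes of glucose uptake, glycolysis, pH control, vessel growth and mitophagy. The control acts on the subunit proteins, so mRNA of HIF1A itself is not a readout of it. In squamous epithelium the layers far from the blood supply are known to hold little oxygen.

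The DNA element bound by these factors has the core ACGTG or GCGTG, and its form in the promoters is shown for the 5 members with the largest rise between D3 and untreated D11 (ANKRD37, ENO2, HK2, BHLHE40 and CA9) and for EGLN3, whose promoter held no match. RefSeq promoters (GRCh38.p14) of 250 bases before and 50 bases after a start site were at hand for 37 of the 41 members; BNIP3L, HILPDA, NDRG1 and VEGFA had none. The bases before the start are printed 5′ to 3′ on the gene's own strand, with every ACGTG or GCGTG, on either strand, in capitals. A CACGTG reads as ACGTG on both strands and was counted for each.
ANKRD37, plus strand, chr4:185396591-185396840: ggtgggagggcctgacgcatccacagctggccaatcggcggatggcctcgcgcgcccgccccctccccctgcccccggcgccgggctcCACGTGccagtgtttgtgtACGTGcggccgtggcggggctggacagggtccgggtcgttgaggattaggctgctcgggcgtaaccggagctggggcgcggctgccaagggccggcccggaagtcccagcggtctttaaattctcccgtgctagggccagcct
ENO2, plus strand, chr12:6914330-6914579: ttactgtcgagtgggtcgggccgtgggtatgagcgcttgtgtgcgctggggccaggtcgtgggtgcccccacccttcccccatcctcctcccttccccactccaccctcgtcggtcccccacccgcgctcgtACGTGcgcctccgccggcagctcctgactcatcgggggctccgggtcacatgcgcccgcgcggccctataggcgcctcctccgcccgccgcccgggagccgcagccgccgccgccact
HK2, first start site, plus strand, chr2:74833877-74834126: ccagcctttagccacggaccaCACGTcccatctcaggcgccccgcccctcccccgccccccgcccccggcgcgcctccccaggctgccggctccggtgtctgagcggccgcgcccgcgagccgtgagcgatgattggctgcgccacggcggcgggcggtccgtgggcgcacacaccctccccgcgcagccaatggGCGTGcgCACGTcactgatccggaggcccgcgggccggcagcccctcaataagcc
HK2, second start site, plus strand, chr2:74834920-74835169: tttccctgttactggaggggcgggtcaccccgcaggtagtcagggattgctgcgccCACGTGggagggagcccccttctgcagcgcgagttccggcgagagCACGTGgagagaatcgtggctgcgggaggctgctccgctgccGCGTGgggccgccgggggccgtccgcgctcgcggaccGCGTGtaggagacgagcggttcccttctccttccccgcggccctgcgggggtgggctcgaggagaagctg
BHLHE40, plus strand, chr3:4979187-4979436: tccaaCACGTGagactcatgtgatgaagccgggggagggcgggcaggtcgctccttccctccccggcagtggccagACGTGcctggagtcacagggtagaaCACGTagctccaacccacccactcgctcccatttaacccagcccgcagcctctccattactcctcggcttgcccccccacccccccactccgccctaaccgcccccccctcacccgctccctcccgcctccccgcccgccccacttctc
CA9, plus strand, chr9:35673678-35673927: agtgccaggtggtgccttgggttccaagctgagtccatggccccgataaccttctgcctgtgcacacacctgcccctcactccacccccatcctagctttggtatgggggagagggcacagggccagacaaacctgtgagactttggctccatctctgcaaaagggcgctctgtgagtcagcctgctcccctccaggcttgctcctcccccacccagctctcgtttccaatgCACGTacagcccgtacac
EGLN3, minus strand, chr14:33951075-33951324: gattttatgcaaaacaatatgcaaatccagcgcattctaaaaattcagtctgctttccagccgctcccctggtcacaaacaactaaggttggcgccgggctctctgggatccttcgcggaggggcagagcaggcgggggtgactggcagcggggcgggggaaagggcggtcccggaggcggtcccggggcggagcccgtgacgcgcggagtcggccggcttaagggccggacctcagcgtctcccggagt

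The printed stretches held 3 matches for ANKRD37, 1 for ENO2, 3 and 6 for the start sites of HK2, 4 for BHLHE40, 1 for CA9 and 0 for EGLN3. Over the whole window of 300 bases, ACGTG or GCGTG lay in 47 of 66 promoters of the matched members (71.2%), against 17012 of 35116 promoters of all genes (48.4%). ACGTG alone lay in 43.9% of the members' promoters against 21.4% of all, and GCGTG alone in 43.9% against 36.5%. Counted by gene, 34 of 37 members had a match at some start site, against 52.4% of all genes. The members include known targets of the factors, so the match of list and motif was built in by the choice of genes, and a match is a run of letters and not a shown binding site.

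The cultures matched their label by markers of squamous epithelium. Of 5 epithelial markers read, 4 reached 1 TPM (KRT5, KRT14, TP63 and CDH1), and EPCAM, which is not particular to squamous epithelium, did not. Of 6 fibroblast markers 1 reached 1 TPM (COL1A1, at most 78.1 TPM), with COL1A2 and COL3A1 listed at 0 in every library. Endothelial markers reached at most 0.3 TPM and columnar, goblet and ciliated markers at most 0.2 TPM, and of the leukocyte markers 1 reached 1 TPM (CD14, at most 122 TPM). The fibroblast markers summed to 0.00034 to 0.00096% of TPM in monolayers, 0.00081 to 0.00304% at D3 and 0.00579 to 0.00781% in untreated D11 spheroids, and the leukocyte markers to 3e-05 to 0.00051%, 0.00234 to 0.00393% and 0.00101 to 0.00589% at the same stages. The part of these markers in the results was not tested. Transcripts of the mitochondrial genome took 44.8 to 50.1% of TPM in monolayers, 39.1 to 57.1% at D3 and 14.8 to 27.9% in untreated D11 spheroids. Because TPM is a share, a lower mitochondrial share raises the shares of all other transcripts together, and changes are therefore also given below with these 13 transcripts removed and with median-of-ratios scaling, which sets the typical gene to no change.

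**Figure D1:**
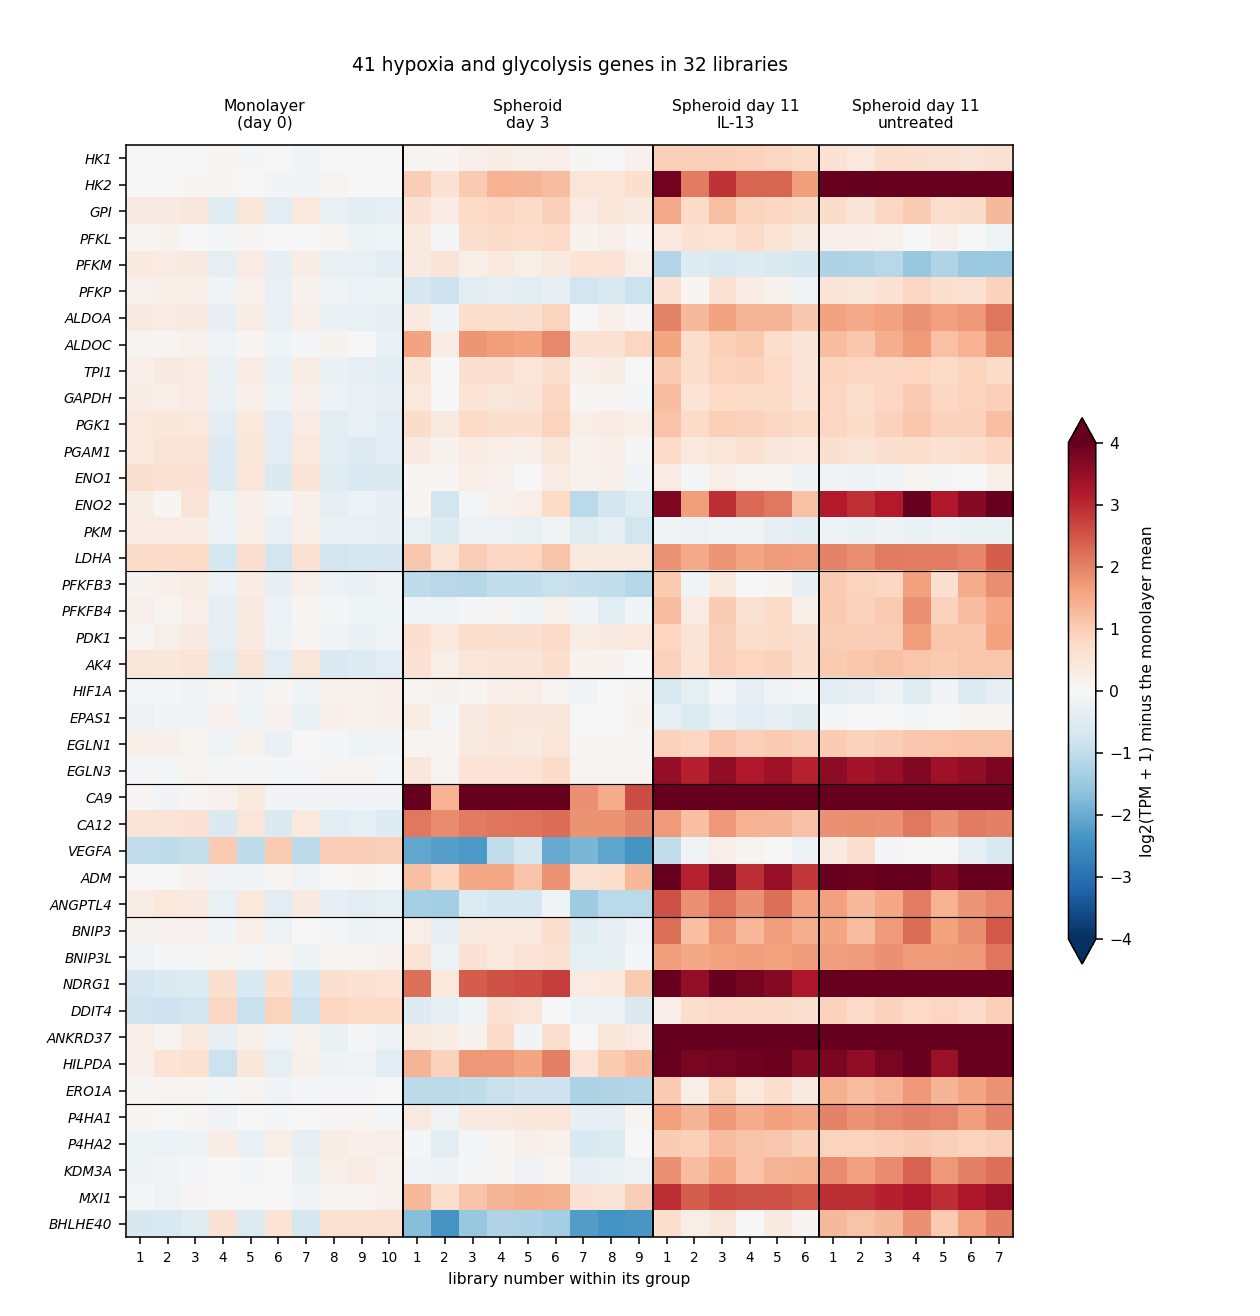
Heat map of the 41 members (rows, in blocks by role) in the 32 libraries (columns, in blocks by group). Colour is log2(TPM + 1) minus the mean of the monolayers, from blue (lower) to red (higher), and is capped at 4 in each direction. HK2, CA9, NDRG1, ADM and ANKRD37 are dark red in all 7 untreated D11 libraries, HIF1A and PFKM are pale or blue there, and D3 libraries 2, 7, 8 and 9 are paler than the other D3 libraries for CA9 and NDRG1.

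The members together took 1.19 ± 0.0659% of TPM in monolayers (n = 10), 1.28 ± 0.261% at D3 (n = 9) and 2.54 ± 0.277% in untreated D11 spheroids (mean ± SD, n = 7). GAPDH was the most abundant member by median in every group, at 3027 to 4749 TPM (median 3840.2) in monolayers, 3704 to 6708 TPM (median 5107) at D3 and 6179 to 7726 TPM (median 6896) in untreated D11 spheroids. DDIT4 and ALDOA followed it at untreated D11. At the other end stood EGLN3, listed at 0 in 7 of 10 monolayers, and CA9, listed at 0 in 6 of 10. Values in the table are rounded to 1 decimal, so the low values of these genes carry few digits.

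Changes below are differences of log2(TPM + 1) with their standard error (SE), from 1 limma fit over all 32 libraries and 12221 genes with batch as a term, with Benjamini-Hochberg adjusted p-values and a threshold of 0.05. The pseudocount of 1 understates changes of genes near 1 TPM, such as EGLN3 and CA9 in monolayers. All 41 members passed the filter on low values (1 TPM or more in at least 6 libraries), EGLN3 only through its D11 libraries. "Higher" and "rose" mean past that threshold.

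The first comparison asked what changed between the flat monolayer and the young spheroid. At D3, 22 members were higher than in monolayers, 7 were lower and 12 did not pass, with a median change of 0.26, where all genes had a median of -0.44. Of all genes tested 12.7% were called higher and 68.2% lower. The genes that rose most were CA9, CA12, NDRG1, HILPDA and ALDOC, and those that fell most were VEGFA, BHLHE40, ERO1A, PFKFB3 and ANGPTL4. Within batches the counts were 24 higher and 9 lower in batch 2, and 14 higher and 12 lower in batch 1. With median-of-ratios scaling, which lifted the median of all genes by 0.43 and called 4061 of them higher and 4051 lower (1556 and 8339 as deposited), they were 31 higher and 5 lower. Within batch 1 the changes of ALDOA, TPI1, GAPDH, PGK1, PGAM1, LDHA and AK4 were negative, at -0.10, -0.07, -0.14, -0.02, -0.31, -0.18 and -0.27.

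The second comparison asked what changed as the untreated spheroid matured. At D11, 32 members were higher than at D3, 4 were lower (PFKM, HIF1A, PFKL and EPAS1) and 5 did not pass, with a median change of 1.28 against -0.02 for all genes. Of all genes tested 33.6% were higher and 35.8% lower. All 7 members of mitophagy, stress and lipid storage rose, as did all 5 of collagen hydroxylation, demethylation and transcription and all 4 regulators of flux. Of the 16 glycolytic enzymes 10 rose, 2 fell and 4 did not pass. The counts were 33 higher and 4 lower within batch 2 and 33 higher and 3 lower within batch 1. With mitochondrial transcripts removed, which moved the median of all genes by -0.49, 24 members were higher and 10 lower, against 1663 and 8018 of 12208 genes. In that fit DDIT4, PDK1 and AK4 did not pass, which left 6 of the 7 members of mitophagy, stress and lipid storage and 2 of the 4 regulators of flux as higher, and all 5 of collagen hydroxylation, demethylation and transcription. Of the glycolytic enzymes only HK2, PFKP, ALDOA, ENO2 and LDHA stayed higher. TPI1, GAPDH, PGK1 and PGAM1 did not pass. HK1 (-0.14), GPI (-0.38), ALDOC (-0.36), ENO1 (-0.79) and PKM (-0.50) were lower past the threshold, besides PFKM and PFKL. Quantile normalization gave 28 higher and 7 lower (4122 and 4813 of all genes) and also left DDIT4 short of the threshold.

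**Figure D2:**
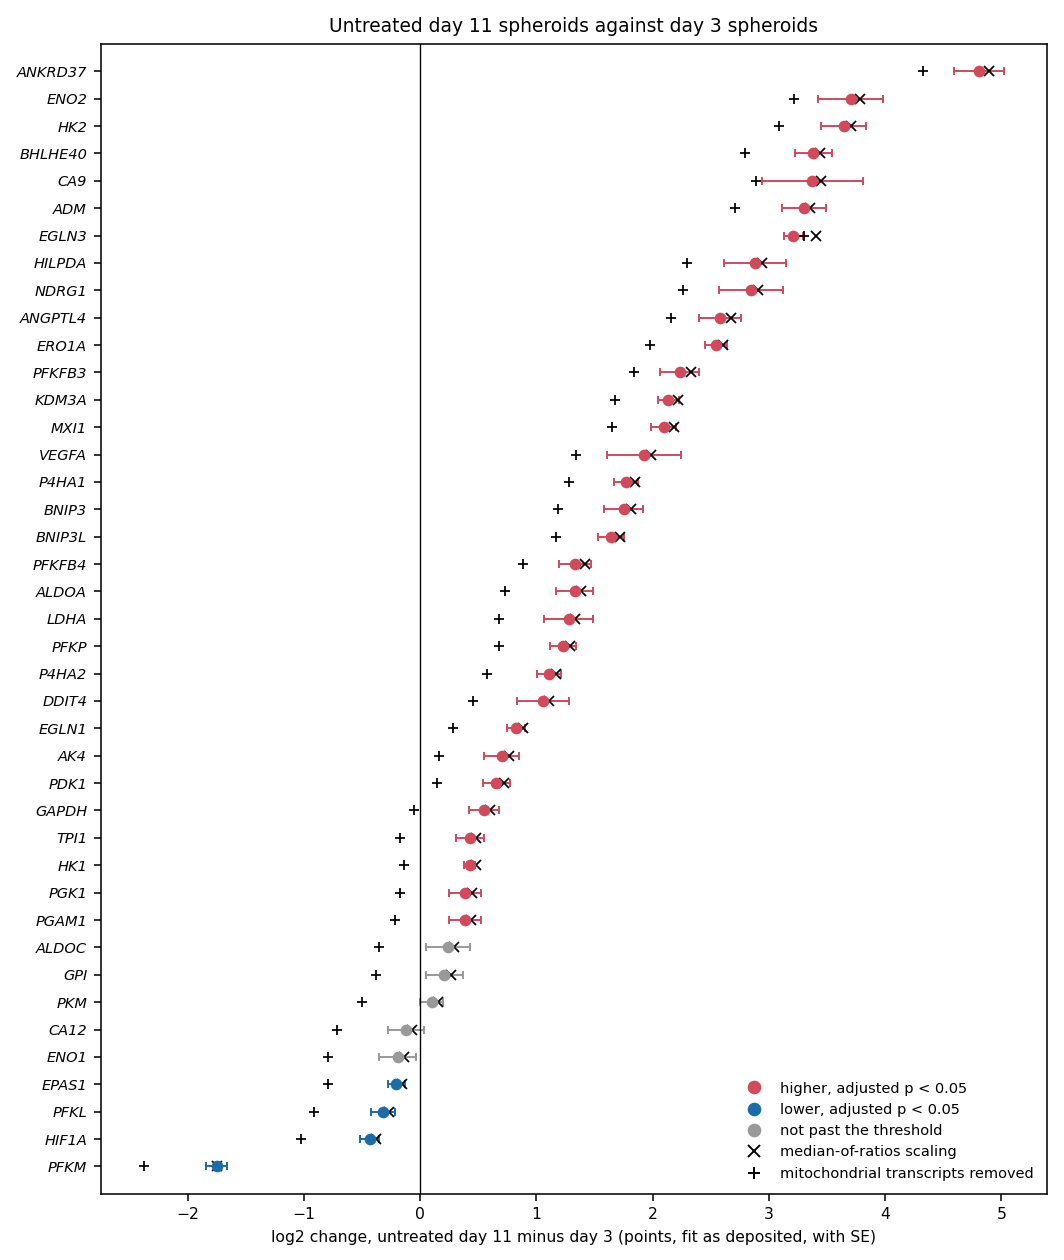
Change of each member between D3 and untreated D11 spheroids (horizontal axis, log2 of TPM + 1, untreated D11 minus D3), sorted by size, with SE. Red points are higher and blue points lower past the threshold, grey points are not past it, crosses give median-of-ratios scaling and plus signs the fit with mitochondrial transcripts removed. The plus signs of GAPDH, TPI1, HK1, PGK1 and PGAM1 lie left of 0, and those of the 27 members above GAPDH lie right of it.

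Between untreated D11 spheroids and monolayers, the comparison that spans the whole culture, 34 members were higher, 3 lower (PFKM, HIF1A and PKM) and 4 did not pass, with a median change of 1.22 against -0.48 for all genes. Of all genes 21.0% were higher and 63.5% lower. Each batch alone gave 34 higher and 3 lower, but not of the same genes. VEGFA changed by 1.24 within batch 1 and -1.32 within batch 2, and ENO1 by -0.68 and 0.67, all past the threshold. PGAM1 and HIF1A did not pass within batch 1, nor did PKM and DDIT4 within batch 2. The size of the change differed between batches in 30 of 41 members, where it did in 48.3% of all genes. Median-of-ratios scaling gave 40 higher and 1 lower, and removal of mitochondrial transcripts 30 higher and 6 lower, with HK1 (0.04), PFKP (0.09), PGAM1 (0.06) and DDIT4 (0.32) no longer past the threshold. Of all genes 4902 were higher and 4915 lower with the scaling, and 1479 and 9611 with the removal. The comparisons share groups and are therefore not independent of each other. The median change of the members minus that of all genes was 0.69, 1.30 and 1.70 for D3 over monolayer, D11 over D3 and D11 over monolayer, against 0.75, 1.31 and 1.74 with median-of-ratios scaling and 0.74, 1.20 and 1.78 with mitochondrial transcripts removed.

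Hexokinase, the enzyme that traps glucose in the cell, differed between its isoforms. HK2, the inducible form, measured 7.3 to 8.7 TPM (median 7.9) in monolayers, 11.6 to 22.4 TPM (median 16.8) at D3 and 155 to 307 TPM (median 187) in untreated D11 spheroids, with no overlap between any of the stages. Its change was 0.90 (SE 0.18, adjusted p = 3.10e-05) for D3 over monolayer, 3.64 (SE 0.19, adjusted p = 2.14e-16) for D11 over D3 and 4.54 (SE 0.19, adjusted p = 9.53e-20) for D11 over monolayer. At D11 over D3 only ANKRD37 and ENO2 among the members changed more. HK1, the form of most tissues, measured 11.9 to 13.5 TPM (median 13.0), 13.1 to 15.9 TPM (median 14.5) and 17.5 to 21.3 TPM (median 19.9) at the same stages. It rose by 0.42 between D3 and D11 (adjusted p = 6.28e-09), though with mitochondrial transcripts removed its change was -0.14.

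Phosphofructokinase, the committed step of the pathway, is made of liver (PFKL), muscle (PFKM) and platelet (PFKP) type subunits, and these moved apart. PFKM measured 6.6 to 12.4 TPM (median 9.3) in monolayers, 10.8 to 13.9 TPM (median 12.1) at D3 and 2.5 to 3.7 TPM (median 3.3) at untreated D11, and its D11 libraries lay below all others of the untreated series. Its change was 0.40 (SE 0.08, adjusted p = 7.36e-05) for D3 over monolayer, -1.75 (SE 0.09, adjusted p = 1.81e-16) for D11 over D3 and -1.35 (SE 0.09, adjusted p = 1.10e-14) for D11 over monolayer, the largest fall among the members in both of the last comparisons. PFKP moved the other way, with 13.2 to 20.1 TPM (median 16.7) in monolayers, 8.6 to 13.0 TPM (median 10.5) at D3 and 22.7 to 32.3 TPM (median 25.6) at untreated D11. The 3 groups of PFKP did not overlap: it changed by -0.58 (SE 0.10, adjusted p = 5.33e-06) for D3 over monolayer and then by 1.23 (SE 0.11, adjusted p = 4.08e-11) for D11 over D3, and by 0.65 (SE 0.11, adjusted p = 2.67e-06) for D11 over monolayer. The first of these PFKP changes did not pass with median-of-ratios scaling (-0.08, adjusted p = 0.574) or quantile normalization (-0.11, adjusted p = 0.38), and the last did not without mitochondrial transcripts (0.09, adjusted p = 0.27). PFKL, the most abundant of the 3 by median at each stage, measured 28.8 to 36.9 TPM (median 33.7), 32.2 to 57.1 TPM (median 44.0) and 29.7 to 38.6 TPM (median 37.5) at the 3 stages, and its groups overlapped. It rose by 0.41 at D3 (adjusted p = 2.18e-04) and was lower by 0.32 (SE 0.10, adjusted p = 0.00629) at D11 than at D3. Within batch 1 neither PFKL change passed, at 0.19 (adjusted p = 0.16) and -0.06 (adjusted p = 0.677), nor did that of PFKM at D3 over monolayer (0.08).

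Most steps between glucose phosphate and pyruvate changed less than HK2. ALDOA, the main aldolase, measured 784 to 1307 TPM (median 1041) in monolayers, 959 to 1892 TPM (median 1343) at D3 and 2949 to 4533 TPM (median 3188) at untreated D11, and every D11 library lay above every D3 library. It changed by 0.39 (SE 0.14, adjusted p = 0.0132) for D3 over monolayer and by 1.33 (SE 0.16, adjusted p = 1.02e-08) for D11 over D3. The brain-type aldolase ALDOC took its step earlier, at 47.1 to 64.2 TPM (median 57.6), 69.6 to 219 TPM (median 172) and 119 to 206 TPM (median 149.7), with a change of 1.19 (SE 0.17, adjusted p = 2.34e-07) at D3 over monolayer and 0.24 (SE 0.19, adjusted p = 0.261) at D11 over D3, which did not pass and became a fall past the threshold with mitochondrial transcripts removed (-0.36). GAPDH, which makes the NADH of glycolysis, was higher in each comparison but turned slightly negative in each with quantile normalization (-0.076, -0.0065 and -0.083). It changed by 0.32 (SE 0.12, adjusted p = 0.0126) at D3 over monolayer, 0.55 (SE 0.13, adjusted p = 3.74e-04) at D11 over D3 and 0.87 (SE 0.12, adjusted p = 1.80e-07) at D11 over monolayer. Without mitochondrial transcripts the second of these GAPDH changes was -0.05, and with array weights, which count libraries that deviate from their group for less, it was 0.05. GPI (the isomerase of glucose phosphate), TPI1 (triose phosphate isomerase), PGK1 (phosphoglycerate kinase) and PGAM1 (phosphoglycerate mutase) had monolayer medians of 21.9, 614, 7.9 and 411 TPM, D3 medians of 31.7, 846, 12.4 and 478 TPM and D11 medians of 35.9, 1089, 15.5 and 617 TPM. TPI1, PGK1 and PGAM1 rose by 0.43, 0.39 and 0.38 between D3 and D11, and all 3 changes turned negative with mitochondrial transcripts removed (-0.17, -0.18 and -0.21), as did those of TPI1 and PGAM1 with quantile normalization (-0.35 and -0.19) and those of all 3 with array weights (-0.04, -0.27 and -0.26). PGK1 also did not pass without untreated D11 library 7 (0.32). GPI did not pass there, but was lower with mitochondrial transcripts removed (-0.38) and with array weights (-0.48), and higher within batch 2 (0.33). The gene of PGK1 is overlapped on the other strand by PGAM4, which measured 188 ± 34.0 TPM at untreated D11 and 129.9 ± 19.0 TPM at D3, and the handling of strand is not given in the sources used here, so their reads cannot be told apart.

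**Figure D3:**
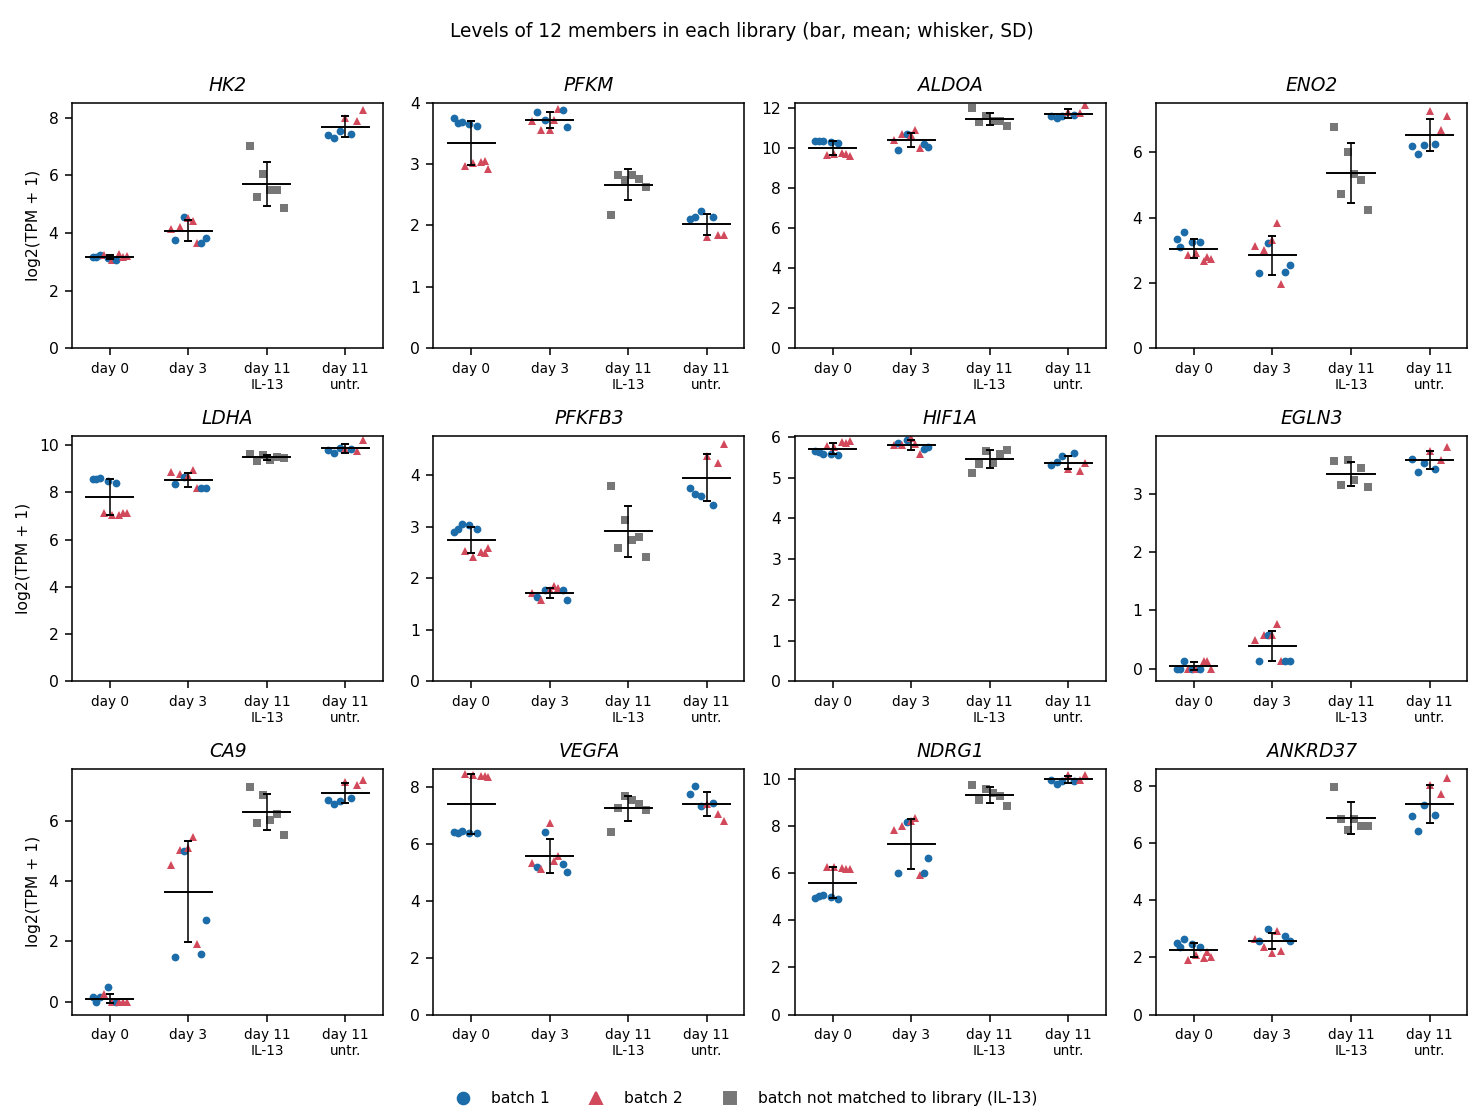
Levels of 12 members in every library (vertical axis, log2(TPM + 1)) for monolayers at day 0, D3 spheroids, D11 spheroids with IL-13 and untreated D11 spheroids. Circles are batch 1, triangles batch 2 and squares the IL-13 libraries, whose batch could not be matched, with bars for means and whiskers for SD. EGLN3 and ANKRD37 are far above D3 in both D11 groups, and PFKM is below it. HK2 is far above D3 in untreated D11 spheroids and nearer to it with IL-13. Monolayers of LDHA, VEGFA and NDRG1 split by batch.

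Enolase, the next step, again showed an isoform shift. ENO2, the neuronal form, measured 5.4 to 10.8 TPM (median 7.05) in monolayers, 2.9 to 13.4 TPM (median 7) at D3 and 61.5 to 153 TPM (median 74.9) at untreated D11, where the lowest library was above every earlier one. Its change was -0.21 (SE 0.25, adjusted p = 0.452) for D3 over monolayer, not past the threshold (-0.70 and past it within batch 1), 3.70 (SE 0.28, adjusted p = 7.36e-13) for D11 over D3 and 3.50 (SE 0.27, adjusted p = 4.20e-13) for D11 over monolayer. ENO1, the ubiquitous form, measured 268 to 645 TPM (median 438), 373 to 509 TPM (median 468) and 357 to 486 TPM (median 401) at the 3 stages, which overlapped, and passed in none of the 3 comparisons. Its change for D3 over monolayer was 0.72 within batch 2 and -0.48 within batch 1, and for D11 over monolayer 0.67 and -0.68, all 4 past the threshold. At D11 over D3 ENO1 was lower with mitochondrial transcripts removed (-0.79), quantile normalization (-0.75) and array weights (-0.95). PKM, the pyruvate kinase gene, measured 442 to 695 TPM (median 557), 334 to 514 TPM (median 449.8) and 452 to 484 TPM (median 465). It changed by -0.35 (SE 0.09, adjusted p = 5.91e-04) at D3 over monolayer and -0.26 (SE 0.10, adjusted p = 0.0145) at D11 over monolayer, and both turned positive with median-of-ratios scaling (0.19 and 0.34). The first of them also did not pass within batch 2 (-0.00023) or with array weights (-0.13), and the other was 0.02 within batch 2. At D11 over D3 PKM changed by 0.10 (SE 0.10, adjusted p = 0.372), and it was lower past the threshold with mitochondrial transcripts removed (-0.50), quantile normalization (-0.48) and array weights (-0.29), and higher within batch 1 (0.24).

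LDHA, which makes lactate, rose at each stage. It measured 132 to 387 TPM (median 240.0) in monolayers, 290.3 to 489 TPM (median 397) at D3 and 806 to 1207 TPM (median 928) at untreated D11, and no D11 library overlapped with an earlier one. Its change was 0.75 (SE 0.19, adjusted p = 7.72e-04) for D3 over monolayer, 1.28 (SE 0.21, adjusted p = 3.59e-06) for D11 over D3 and 2.03 (SE 0.21, adjusted p = 1.72e-10) for D11 over monolayer. The first of these LDHA changes was 1.59 within batch 2 and -0.18 within batch 1, and the second was 0.27 with array weights and did not pass (adjusted p = 0.266).

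As deposited, all 4 regulators of flux were higher at D11 than at either earlier stage, but for D11 over D3 the calls of PDK1 and AK4 were lost under 2 alternatives. PDK1 encodes a kinase that shuts pyruvate dehydrogenase and so keeps pyruvate from the mitochondrion, and it measured 1.9 to 3.9 TPM (median 2.75), 3.7 to 5.5 TPM (median 5) and 6.5 to 11.1 TPM (median 7.1) from monolayer to untreated D11, with no overlap between D11 and D3. The change of PDK1 was 0.55 (SE 0.11, adjusted p = 2.88e-05) at D3 over monolayer, 0.65 (SE 0.12, adjusted p = 1.24e-05) at D11 over D3 and 1.20 (SE 0.11, adjusted p = 4.06e-11) at D11 over monolayer. The second of these was 0.15 with mitochondrial transcripts removed (adjusted p = 0.202) and 0.16 with array weights (adjusted p = 0.253). PFKFB3, which makes the allosteric activator of phosphofructokinase, first fell by 1.02 (SE 0.15, adjusted p = 3.38e-07) at D3 over monolayer and then rose by 2.23 (SE 0.17, adjusted p = 4.67e-13) at D11 over D3. Its levels were 4.3 to 7.3 TPM (median 5.7), 2 to 2.6 TPM (median 2.4) and 9.7 to 23.4 TPM (median 12.4) at the 3 stages, so the D3 libraries formed a separate low group. PFKFB4, an enzyme of the same kind, and AK4, an adenylate kinase of mitochondria, had monolayer medians of 3.35 and 6.4 TPM, D3 medians of 3 and 8.7 TPM and D11 medians of 8.1 and 14.0 TPM. AK4 changed by 0.70 (SE 0.15, adjusted p = 1.15e-04) at D11 over D3, and by 0.16 with mitochondrial transcripts removed (adjusted p = 0.257) and 0.02 with array weights (adjusted p = 0.928).

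In the oxygen sensor, mRNA of the alpha subunits HIF1A and EPAS1 was lower at D11 than at D3. HIF1A measured 46.0 to 59.1 TPM (median 51.1) in monolayers, 47.3 to 62.3 TPM (median 55.3) at D3 and 35.0 to 47.4 TPM (median 40.4) at untreated D11, and the ranges overlapped. It changed by 0.09 (SE 0.07, adjusted p = 0.272) for D3 over monolayer, by -0.43 (SE 0.08, adjusted p = 2.03e-05) for D11 over D3 and by -0.35 (SE 0.08, adjusted p = 1.73e-04) for D11 over monolayer, the last turning to 0.24 with median-of-ratios scaling and not passing with quantile normalization (-0.05) or within batch 1 (-0.15). HIF1A was higher past the threshold at D3 over monolayer with median-of-ratios scaling (0.62), quantile normalization (0.52) and within batch 1 (0.21). EPAS1, its paralogue, measured 15.3 to 21.9 TPM (median 19.3), 18.2 to 26.4 TPM (median 23.2) and 17.6 to 20.0 TPM (median 18.8), with a change of 0.23 (SE 0.07, adjusted p = 0.00252) at D3 over monolayer, -0.21 (SE 0.07, adjusted p = 0.0133) at D11 over D3 and 0.02 (SE 0.07, adjusted p = 0.781) at D11 over monolayer. The first of these EPAS1 changes did not pass within batch 2 (0.12). The second did not pass without untreated D11 library 4 (-0.17, adjusted p = 0.0506), with median-of-ratios scaling (-0.16), with array weights (-0.09) or within batch 1 (-0.16). The third passed as higher with median-of-ratios scaling (0.59) and as lower with mitochondrial transcripts removed (-0.54).

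Of the hydroxylases that mark these subunits, the members EGLN3 and EGLN1 rose, while EGLN2, read with the further genes of oxygen sensing, fell by 1.06 at D3 over monolayer and by 0.23 at D11 over D3. EGLN3 was listed at 0 in 7 of 10 monolayers and at 0.1 TPM in the others, and measured 0.1 to 0.7 TPM (median 0.4) at D3 and 9.4 to 13.0 TPM (median 11.0) at untreated D11, with a wide gap between D3 and D11. Its change was 0.34 (SE 0.08, adjusted p = 1.68e-04) for D3 over monolayer, 3.21 (SE 0.08, adjusted p = 1.99e-23) for D11 over D3 and 3.55 (SE 0.08, adjusted p = 8.96e-26) for D11 over monolayer. EGLN3 reached 1 TPM only at D11 and so passed the filter only through groups where it was high. Its p-values for D11 are therefore no independent support for a rise. The call of EGLN3 at D3 over monolayer compares values that all lie below 1 TPM, a few rounding steps of 0.1 TPM apart. EGLN1, the main hydroxylase of the family, measured 5.7 to 8.5 TPM (median 7), 7.4 to 10.4 TPM (median 7.8) and 14.4 to 16.8 TPM (median 16.0), and changed by 0.23 (SE 0.07, adjusted p = 0.00353), 0.82 (SE 0.08, adjusted p = 7.89e-11) and 1.05 (SE 0.07, adjusted p = 4.88e-14) in the same order of comparisons. EGLN3 did not pass at D3 over monolayer with a pseudocount of 5 (0.08), and EGLN1 did not within batch 1 (0.02).

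Of the genes of secreted and membrane proteins, CA9 stood out by its range. CA9 encodes a carbonic anhydrase of the cell surface that helps to export acid. It was listed at 0 in 6 monolayers and at 0.1 to 0.4 TPM in the other 4, and measured 1.8 to 43.9 TPM (median 22.3) at D3 and 93.7 to 164 TPM (median 108) at untreated D11. Its change was 3.51 (SE 0.40, adjusted p = 2.32e-09) for D3 over monolayer, 3.37 (SE 0.43, adjusted p = 5.34e-08) for D11 over D3 and 6.89 (SE 0.42, adjusted p = 1.51e-15) for D11 over monolayer, the largest of any member in that last comparison. CA12, another surface carbonic anhydrase, measured 7.2 to 17.4 TPM (median 12.0), 41.4 to 57.2 TPM (median 50.8) and 42.8 to 52.2 TPM (median 43.3), with a change of 2.04 (SE 0.14, adjusted p = 3.86e-14) at D3 over monolayer, -0.12 (SE 0.15, adjusted p = 0.487) at D11 over D3 and 1.91 (SE 0.15, adjusted p = 4.31e-13) at D11 over monolayer. The second of these did not pass as deposited but was a fall past the threshold with mitochondrial transcripts removed (-0.72, adjusted p = 1.55e-05) and with array weights (-0.85, adjusted p = 2.15e-05).

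VEGFA, the growth factor of blood vessels, followed another course, with 81.1 to 347 TPM (median 205) in monolayers, 31.1 to 104 TPM (median 39.3) at D3 and 110 to 263 TPM (median 168) at untreated D11. It fell by 1.88 (SE 0.29, adjusted p = 8.10e-07) at D3 over monolayer and rose by 1.93 (SE 0.32, adjusted p = 3.69e-06) at D11 over D3. Its change was 0.05 (SE 0.31, adjusted p = 0.887) at D11 over monolayer, with opposite values within batches, -1.32 in batch 2 and 1.24 in batch 1, and it passed as higher with median-of-ratios scaling (0.64) and array weights (0.86). ANGPTL4, an inhibitor of lipoprotein lipase, measured 5 to 9.8 TPM (median 7.2), 2 to 6.2 TPM (median 2.8) and 18.7 to 32 TPM (median 24.1), and no D11 library overlapped with the others. Its change was -0.93 (SE 0.17, adjusted p = 8.95e-06) at D3 over monolayer, 2.58 (SE 0.18, adjusted p = 1.92e-13) at D11 over D3 and 1.65 (SE 0.18, adjusted p = 7.11e-10) at D11 over monolayer. ADM, the precursor of the vasodilator adrenomedullin, measured 71.2 to 87.3 TPM (median 79.7), 122 to 279.5 TPM (median 183) and 1076 to 2908 TPM (median 1743), 3 ranges without overlap. It rose by 1.17 (SE 0.17, adjusted p = 3.66e-07), 3.30 (SE 0.19, adjusted p = 1.41e-15) and 4.47 (SE 0.18, adjusted p = 8.36e-20) in the 3 comparisons in the same order.

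Among the genes of stress and mitophagy the change came mostly after D3. ANKRD37, which encodes a small ankyrin repeat protein, measured 2.8 to 5.2 TPM (median 3.85) in monolayers, 3.4 to 7 TPM (median 5) at D3 and 84.3 to 309 TPM (median 159) at untreated D11. Its change was 0.33 (SE 0.20, adjusted p = 0.124) at D3 over monolayer, not past the threshold, and then 4.81 (SE 0.22, adjusted p = 4.07e-18) at D11 over D3, the largest of the members and at the 99.8 percentile of all genes tested. The change of ANKRD37 was 5.13 (SE 0.21, adjusted p = 6.61e-20) at D11 over monolayer. For D3 over monolayer ANKRD37 passed within batch 2 (0.43), with median-of-ratios scaling (0.76), quantile normalization (0.79) and array weights (0.39), and with only the 2 groups fitted (0.35). NDRG1, a stress-responsive gene of epithelial differentiation, measured 29.2 to 75.7 TPM (median 51.6), 59.9 to 329 TPM (median 226) and 876 to 1145 TPM (median 1001). It changed by 1.59 (SE 0.25, adjusted p = 1.14e-06) at D3 over monolayer, by 2.85 (SE 0.28, adjusted p = 1.64e-10) at D11 over D3 and by 4.44 (SE 0.27, adjusted p = 9.73e-16) at D11 over monolayer. BNIP3, a receptor for mitophagy on the outer mitochondrial membrane, measured 14.6 to 20.9 TPM (median 17.1), 12.2 to 28.4 TPM (median 21.1) and 42.2 to 99.4 TPM (median 59.2), with D3 and monolayers overlapping and D11 above both. Its change was 0.08 (SE 0.15, adjusted p = 0.645) at D3 over monolayer, 1.75 (SE 0.16, adjusted p = 9.09e-11) at D11 over D3 and 1.82 (SE 0.16, adjusted p = 6.68e-12) at D11 over monolayer, and the first of these passed with median-of-ratios scaling (0.59), quantile normalization (0.55) and array weights (0.34). BNIP3L, a receptor of the same kind, had medians of 3.8, 5.3 and 14.5 TPM from monolayer to D11 and rose by 1.64 at D11 over D3. HILPDA, a lipid droplet protein, had medians of 21.3, 54.0 and 303 TPM and changed by 1.34 (SE 0.24, adjusted p = 9.35e-06) and 2.88 (SE 0.27, adjusted p = 6.29e-11) in the first and second comparison. ERO1A, an oxidase of the endoplasmic reticulum, dipped at D3, with 36.0 to 42.6 TPM (median 38.7), 15.7 to 21.9 TPM (median 18.7) and 94.3 to 138 TPM (median 107). Its change was -1.04 (SE 0.09, adjusted p = 6.20e-12) at D3 over monolayer and 2.54 (SE 0.10, adjusted p = 1.05e-19) at D11 over D3. DDIT4, an inhibitor of the growth kinase mTOR, was abundant throughout, with medians of 3501, 2592 and 5477 TPM, and rose by 1.06 at D11 over D3 (adjusted p = 1.02e-04). That change of DDIT4 did not pass with mitochondrial transcripts removed (0.46, adjusted p = 0.071) or with quantile normalization (0.23, adjusted p = 0.449). No monolayer lay near the median of 3501 TPM, with 1639.9 to 1778.3 TPM in batch 1 and 5223.7 to 5627.6 TPM in batch 2. For D3 over monolayer DDIT4 changed by 0.67 within batch 1 and by -0.91 within batch 2, both past the threshold. For D11 over monolayer it was higher as deposited (0.90) but not within batch 2 (0.008, adjusted p = 0.966).

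The transcription and hydroxylation genes all rose between D3 and D11. BHLHE40, a repressor of transcription, dipped at D3, with 242 to 609.8 TPM (median 433) in monolayers, 75.1 to 170.1 TPM (median 121) at D3 and 818 to 1604 TPM (median 985) at untreated D11, 3 ranges without overlap. It fell by 1.86 (SE 0.14, adjusted p = 5.05e-13) at D3 over monolayer and rose by 3.38 (SE 0.16, adjusted p = 8.06e-18) at D11 over D3. MXI1, an antagonist of MYC, measured 1 to 1.5 TPM (median 1.2), 2.2 to 5.1 TPM (median 3.9) and 16.1 to 22.6 TPM (median 18.3), also without overlap, and rose by 1.04 and 2.09 in these comparisons. The collagen prolyl hydroxylase subunits P4HA1 and P4HA2 and the histone demethylase KDM3A had monolayer medians of 4.85, 9.45 and 4.2 TPM, D3 medians of 6.5, 9 and 3.9 TPM and D11 medians of 21.5, 18.9 and 19.2 TPM. They rose by 1.77, 1.11 and 2.13 between D3 and D11 and none passed between monolayer and D3. For D3 over monolayer all 3 were higher with median-of-ratios scaling (0.59, 0.33 and 0.28), while P4HA2 and KDM3A were lower within batch 2 (-0.32 and -0.26).

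The D3 libraries varied widely among themselves in many members, CA9 and NDRG1 among them. In libraries 1 to 9, in order, CA9 read 22.3, 1.8, 31.6, 31.1, 33.8, 43.9, 2.8, 2.0 and 5.6 TPM. NDRG1 read 225.5, 63.8, 257.7, 286.5, 298.7, 329.3, 59.9, 63.4 and 98.7 TPM in the same order. Libraries 2, 7, 8 and 9 were the low ones for both genes, with no other D3 library near them. The mitochondrial share of TPM was 45.8, 55.7, 42.7, 39.7, 42.2, 39.1, 54.6, 53.1 and 57.1% in the same order, highest in those 4 libraries, and its part in the split was not tested. Libraries 2, 7, 8 and 9 were also the lowest at D3 for HK2, GPI, PFKL, ALDOA, ALDOC, TPI1, GAPDH, PGK1, ENO2, PKM and LDHA. The same held for PDK1, AK4, EPAS1, EGLN1, EGLN3, CA12, BNIP3, BNIP3L, HILPDA, ERO1A, P4HA1, KDM3A, MXI1 and BHLHE40. These libraries were not the lowest for VEGFA, ANKRD37, ADM, PFKP, HK1, PFKM, PFKFB3, PFKFB4, PGAM1, ENO1, P4HA2, DDIT4, ANGPTL4 or HIF1A. ALDOC read 69.6 to 103.2 TPM in them and 172.4 to 218.6 TPM in the others. Every comparison with D3 averages over both sets of libraries. By the labels library 4 is of batch 1 and library 7 of batch 2, the low libraries 2, 8 and 9 are of batch 1 and the high libraries 1, 3, 5 and 6 of batch 2. Without libraries 4 and 7 the members counted 23 higher and 7 lower for D3 over monolayer and 32 higher and 4 lower for D11 over D3. All genes counted 1532 higher and 8269 lower, and 4091 and 4234, in the same order.

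Monolayers differed between the experiments in many members. In monolayers 8 members were higher and 20 lower in batch 2 than in batch 1, where 27.1% of all genes were higher and 35.0% lower. LDHA measured 132 to 141 TPM in batch 2 and 339 to 387 TPM in batch 1, a difference of -1.42 (SE 0.11, adjusted p = 4.26e-10). ENO1 measured 268 to 295 TPM in batch 2 and 581 to 645 TPM in batch 1, and CA12 7.2 to 8.5 TPM in batch 2 and 15.5 to 17.4 TPM in batch 1. VEGFA lay the other way, at 323 to 347 TPM in batch 2 and 81.1 to 86.6 TPM in batch 1, and so did DDIT4, at 5224 to 5628 TPM in batch 2 and 1639.9 to 1778 TPM in batch 1. None of these 5 genes overlapped between the experiments.

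In untreated D11 spheroids 15 members were higher and 1 lower (PFKM) in batch 2 than in batch 1, where 4.18% of all genes were higher and 37.0% lower. HILPDA measured 540.4 to 949.8 TPM in batch 2 and 235 to 303 TPM in batch 1, ANKRD37 208 to 309 TPM in batch 2 and 84.3 to 159 TPM in batch 1, and HK2 237 to 307 TPM in batch 2 and 155 to 187 TPM in batch 1. The change itself was tested for a difference between batches. For D3 over monolayer it differed in 26 of 41 members (45.2% of all genes), for D11 over D3 in 5 (23.8% of all genes) and for D11 over monolayer in 30 (48.3% of all genes). The 5 were PFKL, PFKFB4, PFKFB3, HILPDA and ANKRD37. For D11 over D3 ANKRD37 rose by 5.55 in batch 2 and 4.19 in batch 1.

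The last comparison set D11 spheroids grown with IL-13 from day 3 against untreated ones. Here "rose" and "fell" mean higher or lower than in untreated D11 spheroids, and not a change after the spheroid had matured. With IL-13, 14 members were lower than in untreated D11 spheroids, 3 were higher (HK1, PFKL and PFKM) and 24 did not pass, with a median change of -0.29 against 0.19 for all genes. Of all genes 39.2% were higher and 8.49% lower. The genes that fell most were HK2, ENO2, PFKFB3, ADM and BHLHE40, and ERO1A, CA12, PFKFB4, KDM3A, PDK1, MXI1, PFKP, EPAS1 and P4HA1 followed. With median-of-ratios scaling, which moved the median of all genes by -0.19, 23 members were lower and 1 higher, and with quantile normalization 19 were lower and 2 higher. Of all genes 2521 were lower and 2348 higher with the scaling, and 2502 and 2320 with quantile normalization. The IL-13 columns could be matched to their group but not to single samples, so no value within a batch is given. By the labels 5 IL-13 samples were of batch 1 and 1 of batch 2, against 4 and 3 untreated D11 samples. The fit used 1 batch term for all groups, though the batches differed in other ways in monolayers than in untreated D11 spheroids. Changes with IL-13 and differences between batches can therefore not be fully told apart.

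**Figure D4:**
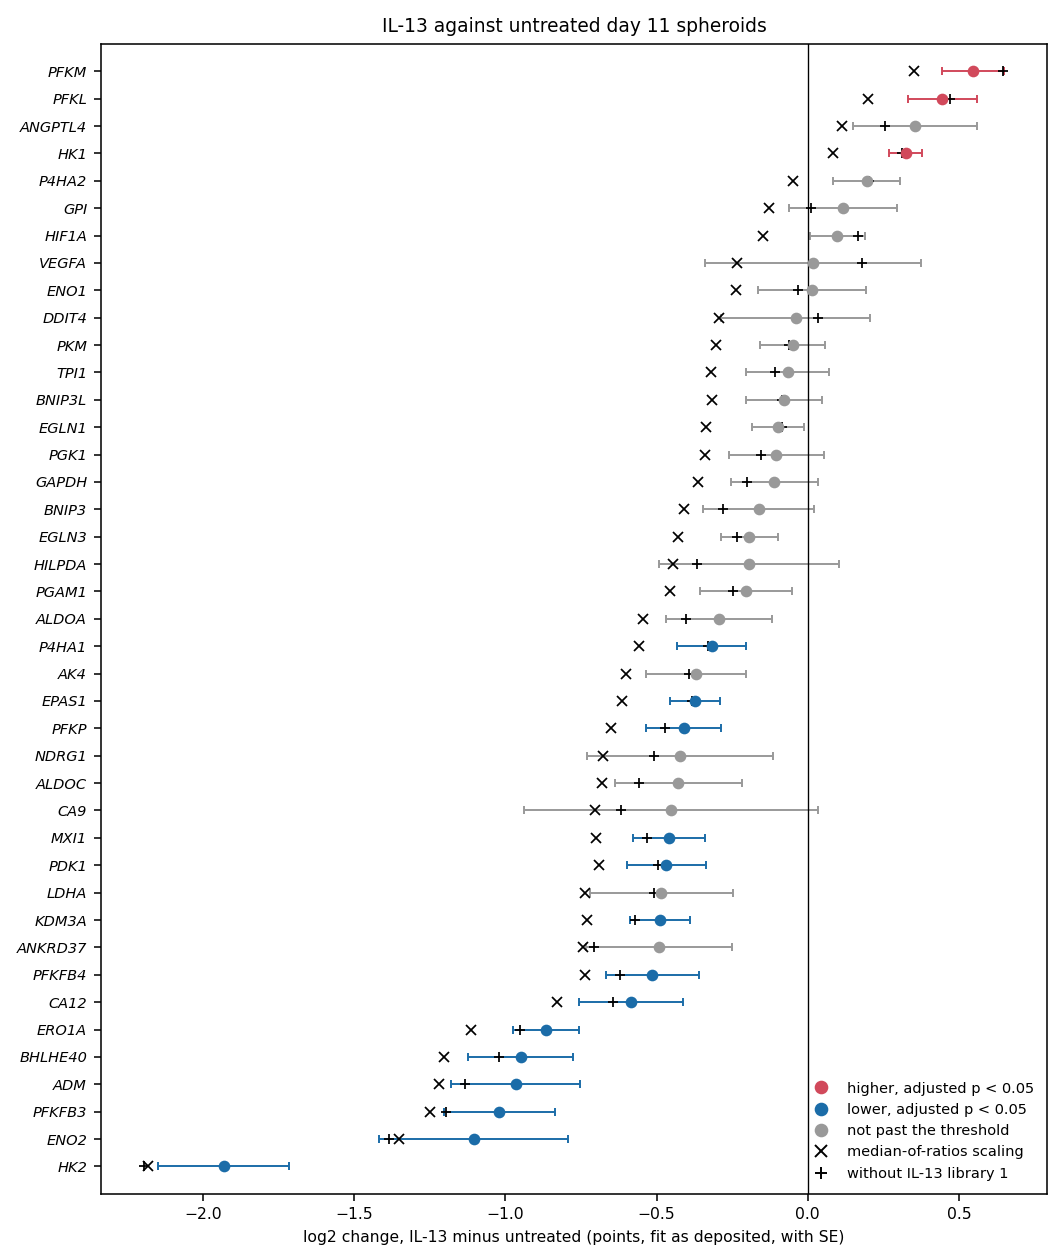
Change of each member with IL-13 (horizontal axis, log2 of TPM + 1, IL-13 minus untreated D11), sorted by size, with SE. Red points are higher and blue points lower past the threshold, grey points are not past it, crosses give median-of-ratios scaling and plus signs the fit without IL-13 library 1. HK2 lies lowest, at -1.93, and the plus signs of HK2, ENO2, PFKFB3 and ADM lie left of their points.

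Of the glycolytic enzymes HK2 changed most with IL-13. HK2 measured 27.9 to 129 TPM (median 44.2) with IL-13, against 155 to 307 TPM (median 187) in untreated D11 spheroids. The groups did not overlap, though IL-13 library 1, at 128.5 TPM, lay far above the other 5, which reached 65.0 TPM at most. The change was -1.93 (SE 0.22, adjusted p = 2.31e-08), and -2.20 without that library. HK1 rose by 0.32 (SE 0.05, adjusted p = 1.97e-05), at 22 to 26.0 TPM (median 25.4) with IL-13 and 17.5 to 21.3 TPM (median 19.9) untreated, again with no overlap, but with median-of-ratios scaling its change was 0.08 and with quantile normalization 0.08, and neither passed. ENO2 measured 17.8 to 109 TPM (median 37.1) with IL-13 and 61.5 to 153 TPM (median 74.9) untreated, which overlapped, and fell by 1.10 (SE 0.31, adjusted p = 0.00465). PFKP fell by 0.41 (SE 0.12, adjusted p = 0.00787), at 14.4 to 25.0 TPM (median 19.3) with IL-13 and 22.7 to 32.3 TPM (median 25.6) untreated, but did not pass with only the IL-13 and untreated D11 libraries fitted (-0.33, adjusted p = 0.0505). PFKM measured 3.5 to 6.1 TPM (median 5.75) with IL-13 and 2.5 to 3.7 TPM (median 3.3) untreated and rose by 0.55 (SE 0.10, adjusted p = 8.83e-05). PFKL measured 43.5 to 57.3 TPM (median 49.1) with IL-13 and 29.7 to 38.6 TPM (median 37.5) untreated, 2 ranges without overlap, and rose by 0.44 (SE 0.11, adjusted p = 0.00208), which did not pass with median-of-ratios scaling (0.20).

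LDHA measured 646 to 782 TPM (median 718) with IL-13 and 806 to 1207 TPM (median 928) untreated, again without overlap, and its change was -0.48 (SE 0.24, adjusted p = 0.0906). With only the IL-13 and untreated D11 libraries fitted the change was -0.34 (adjusted p = 0.00881), and LDHA also passed as lower with median-of-ratios scaling (-0.74) and with mitochondrial transcripts removed (-0.52). GAPDH did not pass, at -0.11 (SE 0.14, adjusted p = 0.544), with 5505 to 8891 TPM (median 6423) with IL-13 and 6179 to 7726 TPM (median 6896) untreated. Medians with IL-13 were 2629.7 TPM for ALDOA, 102 for ALDOC, 1086 for TPI1, 14.8 for PGK1, 547 for PGAM1, 437 for ENO1, 479 for PKM and 39.0 for GPI, and none of these 8 passed as deposited. With median-of-ratios scaling ALDOA (-0.55), ALDOC (-0.68), PGAM1 (-0.46) and PKM (-0.30) passed as lower.

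The regulators of flux were lower in 3 of 4 cases. PFKFB3 measured 4.3 to 12.8 TPM (median 5.85) with IL-13 and 9.7 to 23.4 TPM (median 12.4) untreated and fell by 1.02 (SE 0.18, adjusted p = 5.07e-05). PDK1 measured 4.5 to 6.4 TPM (median 5.3) with IL-13 and 6.5 to 11.1 TPM (median 7.1) untreated, with no overlap, and fell by 0.47 (SE 0.13, adjusted p = 0.00433). PFKFB4 fell by 0.51 (SE 0.15, adjusted p = 0.00758), with a median of 6.05 TPM with IL-13, but did not pass with only the IL-13 and untreated D11 libraries fitted (-0.38), and AK4, with a median of 12.0 TPM with IL-13, did not pass, at -0.37 (SE 0.17, adjusted p = 0.0652). AK4 passed as lower with only those libraries fitted (-0.29), with a pseudocount of 5 (-0.27), with mitochondrial transcripts removed (-0.41), with median-of-ratios scaling (-0.60) and with quantile normalization (-0.59).

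In the oxygen sensor EPAS1 fell with IL-13 and the others did not pass. EPAS1 measured 12.4 to 15.2 TPM (median 13.8) with IL-13 and 17.6 to 20.0 TPM (median 18.8) untreated, 2 ranges without overlap, with a change of -0.37 (SE 0.08, adjusted p = 4.59e-04). HIF1A measured 33.7 to 50.4 TPM (median 43.5) with IL-13 and 35.0 to 47.4 TPM (median 40.4) untreated, with a change of 0.10 (SE 0.09, adjusted p = 0.38). EGLN1 measured 13.4 to 16.1 TPM (median 14.8) with IL-13 and 14.4 to 16.8 TPM (median 16.0) untreated, with a change of -0.10 (SE 0.09, adjusted p = 0.355). EGLN3 measured 7.7 to 11.0 TPM (median 9.15) with IL-13 and 9.4 to 13.0 TPM (median 11.0) untreated, with a change of -0.19 (SE 0.09, adjusted p = 0.0932), and it passed without IL-13 library 1 (-0.23, adjusted p = 0.0391). Both EGLN1 (-0.34) and EGLN3 (-0.43) passed as lower with median-of-ratios scaling.

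Of the genes of secreted and membrane proteins, ADM measured 563 to 1499.7 TPM (median 785) with IL-13 and 1076 to 2908 TPM (median 1743) untreated and fell by 0.97 (SE 0.21, adjusted p = 4.65e-04). CA12 measured 26.6 to 40.2 TPM (median 30.8) with IL-13 and 42.8 to 52.2 TPM (median 43.3) untreated, with no overlap, and fell by 0.58 (SE 0.17, adjusted p = 0.00604). CA9 measured 45.8 to 138 TPM (median 69.8) with IL-13 and 93.7 to 164 TPM (median 108) untreated and did not pass, with a change of -0.45 (SE 0.49, adjusted p = 0.459). VEGFA measured 85.1 to 203 TPM (median 159) with IL-13 and 110 to 263 TPM (median 168) untreated, with a change of 0.02 (SE 0.36, adjusted p = 0.971). ANGPTL4 measured 23.7 to 45.7 TPM (median 31.7) with IL-13 and 18.7 to 32 TPM (median 24.1) untreated, with a change of 0.36 (SE 0.21, adjusted p = 0.153), and with only the IL-13 and untreated D11 libraries fitted it passed as higher (0.50, adjusted p = 0.0152).

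Of the stress and transcription genes, NDRG1 measured 457 to 864 TPM (median 652) with IL-13 and 876 to 1145 TPM (median 1001) untreated, 2 ranges without overlap. Its change was -0.42 (SE 0.31, adjusted p = 0.262) in the fit over all groups, and -0.60 with only the IL-13 and untreated D11 libraries fitted (adjusted p = 0.00394). BNIP3 measured 40.9 to 83.3 TPM (median 53.6) with IL-13 and 42.2 to 99.4 TPM (median 59.2) untreated, with a change of -0.16 (SE 0.18, adjusted p = 0.485). BHLHE40 measured 401 to 631 TPM (median 487) with IL-13 and 818 to 1604 TPM (median 985) untreated, with no overlap, and fell by 0.95 (SE 0.17, adjusted p = 6.18e-05). ERO1A measured 47.6 to 82.7 TPM (median 58.7) with IL-13 and 94.3 to 138 TPM (median 107) untreated, also with no overlap, and fell by 0.87 (SE 0.11, adjusted p = 1.94e-07). KDM3A, MXI1 and P4HA1 fell by 0.49, 0.46 and 0.32, with medians of 13.1, 12.3 and 16.7 TPM with IL-13, and P4HA1 did not pass without IL-13 library 2 (-0.28). ANKRD37, HILPDA, BNIP3L, DDIT4 and P4HA2 did not pass, with medians of 105, 313, 13.8, 4981 and 20.2 TPM with IL-13. Without IL-13 library 1 ANKRD37, ALDOC, ALDOA and EGLN3 passed as lower as well, with ANKRD37 at -0.71 (adjusted p = 0.00786). Mitochondrial transcripts took 13.2% of TPM in IL-13 library 1 and 18.7 to 25.6% in the other 5, against 14.8 to 27.9% in untreated D11 libraries, and their part in these values was not tested. The fibroblast markers summed to 0.0022 to 0.00469% of TPM with IL-13 and 0.00579 to 0.00781% untreated, and the leukocyte markers to 0.00225 to 0.0122% with IL-13 and 0.00101 to 0.00589% untreated, likewise not tested.

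Shares between isoforms do not depend on how a library is scaled. The shares were chosen after the levels were seen and are given as a description, with no test. HK2 made up 37.0 to 40.1% (median 38.2) of HK1 and HK2 transcripts in monolayers, 46.8 to 59.0% (median 54.2) at D3 and 89.5 to 93.9% (median 89.9) at untreated D11, against which IL-13 spheroids stood at 55.9 to 83.2% (median 64.3). None of these 4 ranges overlapped except that of IL-13 with that of D3. PFKP made up 24.6 to 30.7% (median 28.0) of the 3 phosphofructokinase transcripts in monolayers, 15.1 to 16.5% (median 15.6) at D3 and 35.1 to 50% (median 38.8) at untreated D11, and PFKM 12.4 to 18.7% (median 16.0), 14.0 to 24.6% (median 18.1) and 3.78 to 5.56% (median 5). ENO2 made up 1.19 to 2.33% (median 1.77) of the enolase transcripts in monolayers, 0.615 to 2.57% (median 1.38) at D3 and 14.7 to 25.8% (median 16.2) at untreated D11.

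**Figure D5:**
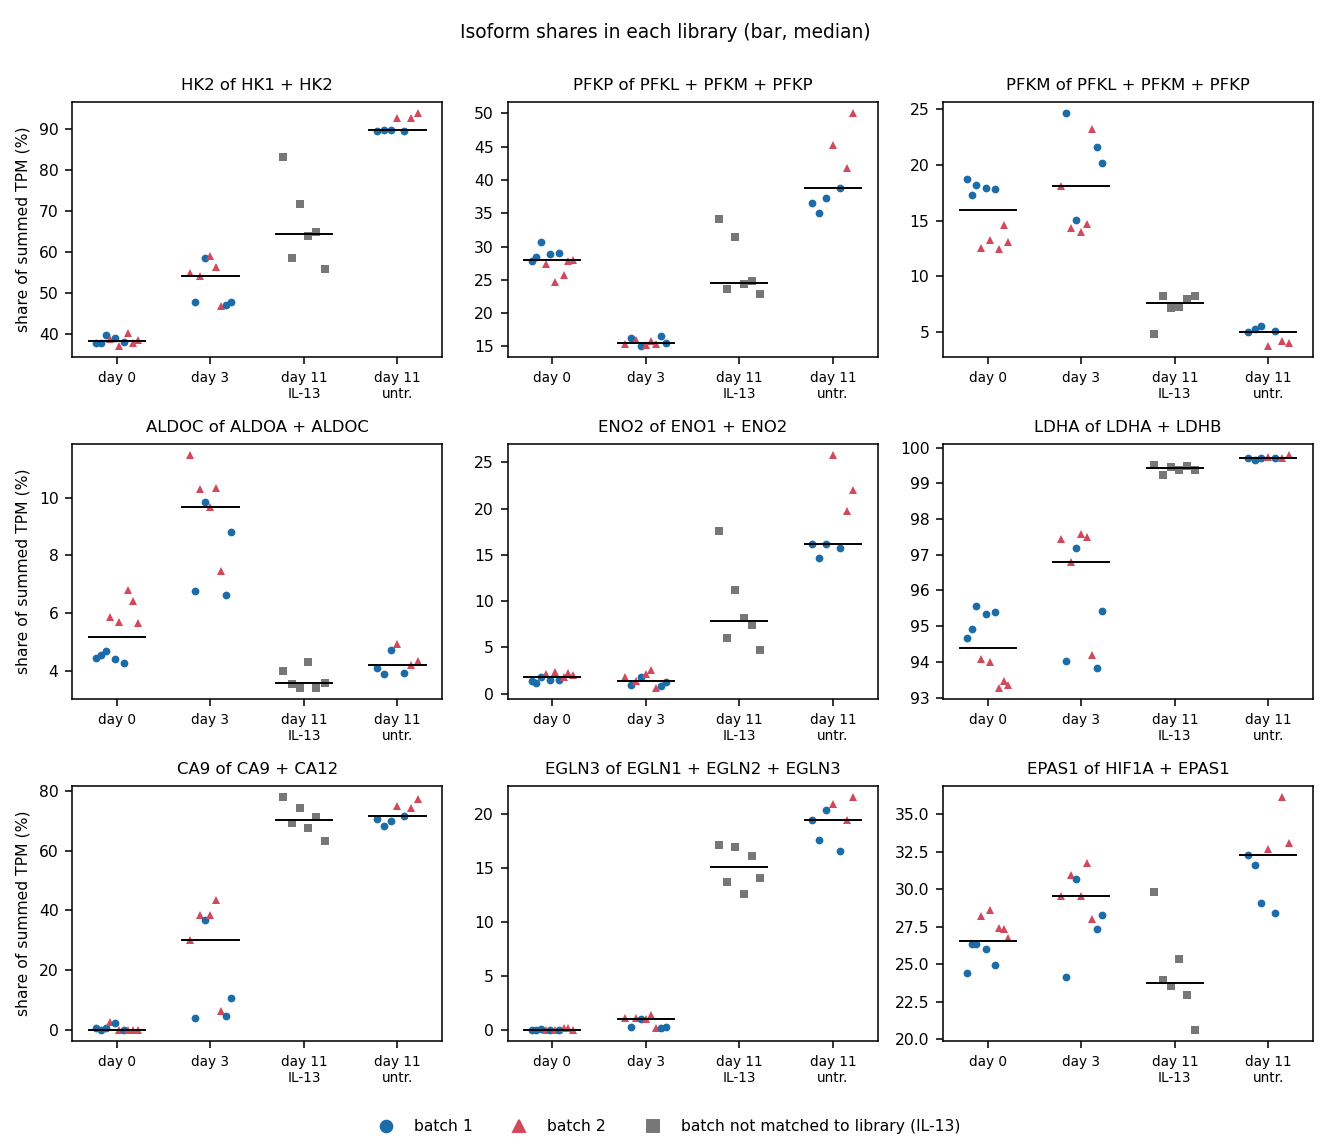
Share of 1 isoform in the summed TPM of its family (vertical axis, %, not starting at 0) in every library, for monolayers at day 0, D3 spheroids, D11 spheroids with IL-13 and untreated D11 spheroids, with medians as bars. The HK2 share lies between 89.5 and 93.9% in untreated D11 libraries and between 55.9 and 83.2% with IL-13. The ALDOC share is highest at D3, and the EGLN3 share is near 0 in monolayers.

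LDHA took up nearly all of the lactate dehydrogenase transcripts, at 93.3 to 95.6% (median 94.4) of LDHA and LDHB in monolayers, 93.8 to 97.6% (median 96.8) at D3 and 99.7 to 99.8% (median 99.7) at untreated D11. ALDOC held 4.28 to 6.79% (median 5.18) of the aldolase transcripts in monolayers, 6.62 to 11.5% (median 9.69) at D3 and 3.89 to 4.94% (median 4.18) at untreated D11. CA9 held 0 to 2.70% (median 0) of CA9 and CA12 in monolayers, 3.85 to 43.4% (median 30.0) at D3 and 68.4 to 77.1% (median 71.5) at untreated D11. EGLN3 held 0 to 0.131% (median 0) of the 3 hydroxylases in monolayers, 0.210 to 1.40% (median 1.04) at D3 and 16.6 to 21.6% (median 19.5) at untreated D11. With IL-13 the EPAS1 share of HIF1A and EPAS1 was 20.6 to 29.8% (median 23.7), against 28.4 to 36.1% (median 32.3) in untreated D11 spheroids, and the ranges overlapped.

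Genes around the members were read from 6 lists, fitted as deposited. Their counts are to be read against the shares of all genes called, which were 12.7% higher and 68.2% lower at D3 over monolayer, 33.6% and 35.8% at D11 over D3, 21.0% and 63.5% at D11 over monolayer and 39.2% and 8.49% with IL-13. At D11 over D3 the median change was -0.18 for glucose and lactate transport, 0.73 for further hypoxia-induced genes, -0.47 for pyruvate dehydrogenase and the citric acid cycle, 0.10 for further oxygen-sensing genes, -0.25 for other isoforms of the glycolytic steps and -0.24 for the pentose phosphate pathway, against -0.02 for all genes. With IL-13 the medians in the same order of lists were 0.06, 0.0037, 0.22, 0.18, 0.33 and 0.29, against 0.19 for all genes. Named genes passed the threshold, and levels of list genes are means ± SD (n = 6 with IL-13, 7 at untreated D11 and 9 at D3). Glucose and lactate transporters numbered 14, of which 9 passed the filter. Of these, 3 were higher and 3 lower at D11 over D3, 2 higher and 7 lower at D3 over monolayer, 3 higher and 6 lower at D11 over monolayer and 2 higher and 2 lower with IL-13. SLC2A1, the basal glucose transporter of epithelia, rose by 1.81 at D3 over monolayer and by 1.31 at D11 over D3, to 618 ± 46.7 TPM at untreated D11, against 259 ± 70.1 TPM at D3. SLC2A3, a transporter of high affinity, changed by -0.75 and then by 2.88 in the same comparisons, and the lactate transporter SLC16A1 rose by 0.67 at D3. SLC2A6 fell by 3.19 at D3 over monolayer and by 2.09 at D11 over D3, where EMB, a partner of lactate transporters, fell by 0.52. With IL-13 EMB and SLC2A8 rose by 0.81 and 0.29, and SLC2A3 and SLC2A1 fell by 0.63 and 0.43.

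Of 44 further genes known to be induced by hypoxia 37 were tested, and 30 were higher and 5 lower at D11 over D3, where 33.6% of all genes were higher and 35.8% lower. PGF, a growth factor related to VEGFA, and PPP1R3C, a glycogen-targeting subunit, rose most there, by 3.15 and 2.68, and TFRC, the transferrin receptor, and RIOX1 fell most, by 1.65 and 1.62. At D3 over monolayer 10 of the 37 were higher and 20 lower, where 12.7% of all genes were higher and 68.2% lower, led by LOX (1.51) and FAM162A (1.45) above and STC2 (-2.73) and LOXL2 (-2.15) below. At D11 over monolayer 23 were higher and 9 lower (21.0% and 63.5% of all genes), with PPP1R3C (3.34) and FAM162A (3.09) highest and RIOX1 (-2.34) and TFRC (-2.25) lowest. With IL-13 9 were higher and 11 lower (39.2% and 8.49% of all genes). LOX, which cross-links collagen, rose by 2.85 with IL-13, to 18.8 ± 2.94 TPM against 1.99 ± 0.694 TPM untreated, and HMOX1, a heme oxygenase, by 0.90, while FAM162A fell by 0.87.

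Of 29 genes of pyruvate dehydrogenase and the citric acid cycle 28 were tested, and at D11 over D3 20 were lower, where 35.8% of all genes were, and 2 higher (IDH3A at 0.28 and PDHX at 0.24). FH, the fumarate hydratase, and PC, the pyruvate carboxylase, fell most, by 1.12 and 1.02. At D3 over monolayer 7 were higher and 12 lower (12.7% and 68.2% of all genes), with PDK2 (1.76) and SDHD (0.54) highest and PDP1 (-1.66) and SDHA (-0.73) lowest. At D11 over monolayer 2 were higher (PDK2 at 1.85 and SUCLG1 at 0.17) and 17 lower, against 63.5% of all genes, with PDP1 (-1.49) and PC (-1.48) lowest. With IL-13 14 were higher and 2 lower (39.2% and 8.49% of all genes), with MPC2 (0.58) and PDHA1 (0.58) highest and IDH3A (-0.40) and PC (-0.19) the 2 that fell.

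Of 16 further genes of oxygen sensing 14 were tested. At D11 over D3 5 were higher, led by CITED2 (1.99), a competitor of the factors for their coactivator, and SIAH1 (1.15), a ubiquitin ligase, and 5 lower, led by HIF1AN (-0.61), which blocks the coactivator, and VHL (-0.44), which degrades the hydroxylated subunits. At D3 over monolayer 2 were higher (ELOB at 0.93 and P4HTM at 0.48) and 11 lower, against 68.2% of all genes, with CREBBP (-1.13) and EGLN2 (-1.06) lowest. At D11 over monolayer 5 were higher, with CITED2 (2.23) and ELOB (0.73) first, and 7 lower, against 63.5% of all genes, with EGLN2 (-1.28) and HIF1AN (-1.23) last. With IL-13 4 were higher, led by VHL (0.57) and ELOB (0.53), and 10 did not pass, where 39.2% of all genes were higher.

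Of 8 tested genes of other isoforms and side steps of glycolysis, 3 were higher and 3 lower at D11 over D3. LDHB, the heart-type lactate dehydrogenase, fell by 2.12, to 2.67 ± 0.125 TPM at untreated D11 against 14.7 ± 3.69 TPM at D3, and GAPDHS by 0.63, while PFKFB2 and BPGM rose by 0.96 and 0.55. At D3 over monolayer 6 of the 8 were lower, a share near the 68.2% of all genes, and 2 did not pass, led by ENO3 (-1.0) and TIGAR (-0.78). At D11 over monolayer 2 were higher (PGAM4 at 0.69 and PFKFB2 at 0.41) and 5 lower, near the 63.5% of all genes, with LDHB (-1.98) and GAPDHS (-1.28) lowest. The value of PGAM4 is uncertain, as stated above with PGK1 and PGAM1. With IL-13 4 were higher, where 39.2% of all genes were, led by GAPDHS (0.92) and TIGAR (0.60), and 1 lower (PFKFB2 at -0.20).

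All 7 genes of the pentose phosphate pathway, which branches off glucose phosphate to make NADPH, were tested. At D11 over D3 5 were lower, where 35.8% of all genes were, and 1 higher (PGLS at 1.25). PGD, a dehydrogenase of the pathway, measured 24.2 ± 4.17 TPM at untreated D11 and 60.7 ± 5.67 TPM at D3, and fell by 1.36. At D3 over monolayer 4 were higher, where 12.7% of all genes were, with TKT (0.47) first, and 2 lower (RPE at -0.50 and RPIA at -0.27). At D11 over monolayer 5 were lower, against 63.5% of all genes, PGD (-1.0) among them, and PGLS was higher (1.15). With IL-13 4 were higher, against 39.2% of all genes, and 3 did not pass, with PGD at 0.75.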

How the data were processed

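RNA of EPC2 monolayers and spheroids was sequenced from total RNA, and the authors deposited TPM per gene symbol for 32 libraries, rounded to 1 decimal (library sums 999960 to 999989). Per the submitters' processing notes reads were placed on hg38. Aligner, quantifier, annotation and handling of strand: not given in the sources used here. No counts were used, so depth is unknown. By their names 26 columns were matched to 1 sample each, and 6 IL-13 columns to their group alone, each carrying the group's share of batch 2 (1 of 6 samples) in the batch term.

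The 12221 of 19345 genes that reached 1 TPM in 6 or more libraries were fitted on log2(TPM + 1) with limma 3.58.1 (R 4.3.3; intensity trend, all groups in 1 fit, batch as a term), with Benjamini-Hochberg adjustment over all 12221 and a threshold of 0.05. The fit was also run on simulated data with a batch effect common to all groups. In the real data many changes differed between batches, so that run does not show how the fit behaves here. Labels call the replicates separate samples but do not say that they are separate cultures, so p-values measure the spread between libraries within 2 experiments. Within groups libraries correlated at 0.952 to 0.995 and at most 3.56% of values were equal, so none was counted as a repeat. Alternatives were the pseudocount, the filter, 3 scalings, batch handling, array weights, single libraries left out and a replicate block. Tables and figures used Python 3.11.15, pandas 2.3.3, scipy 1.17.1 and matplotlib 3.10.9. Gene positions and overlaps came from GENCODE 29, and promoters from RefSeq GRCh38.p14.

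The members and lists were chosen with earlier results of these data known. All 41 members are named with group values; full test values are given for the 5 largest rises and falls in each comparison and for 15 genes fixed by role, and of each other list for the 2 largest rises and falls. By named pseudogenes or overlapping genes, 14 members have processed copies (62 for GAPDH and 39 for BNIP3) and 25 are overlapped on the other strand, so their values are uncertain. 1 part of the culture protocol and some genes of the other lists are not reported here.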

Additional observations from a re-analysis of the deposited data

Results flagged for a closer look

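Of 164 sets of values (41 members in 4 groups), 11 held a library set apart from the rest of its group by a gap test at the 95% level (Dixon's ratio). Chance gives about 1 in 20 for independent sets. These sets share libraries and are not independent, so the count cannot be read against that rate.

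In IL-13 spheroids library 1 stood apart for 7 members. HK2 was at 128.5 TPM there and at 27.9 to 65.0 TPM in the other 5 libraries, and ANKRD37 at 247.6 TPM against 86.9 to 113.9 TPM. HILPDA was at 627.9 TPM against 275.5 to 324.1 TPM, GAPDH at 8890.7 TPM against 5505.4 to 6626.9 TPM, and MXI1 at 16.3 TPM against 10.9 to 12.6 TPM. Library 1 was the lowest for DDIT4, at 3666.1 TPM against 4706.2 to 5126.5 TPM, and for PFKM, at 3.5 TPM against 5.2 to 6.1 TPM. Its mitochondrial share, 13.2% of TPM, was below the 18.7 to 25.6% of the other IL-13 libraries, and the part of this share was not tested. By the labels 1 of the 6 IL-13 samples is of batch 2, and whether library 1 is that sample could not be told.

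In untreated D11 spheroids library 7 stood apart for 3 members, with ALDOA at 4532.6 TPM against 2949.1 to 3602.5 TPM, LDHA at 1207.4 TPM against 805.6 to 940.3 TPM and BNIP3L at 20.0 TPM against 14.1 to 15.7 TPM. Its mitochondrial share was 14.8% of TPM, the lowest of that group. In monolayers library 5 was highest for CA9, at 0.4 TPM against 0.0 to 0.2 TPM, a gap of few rounding steps.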

How the results depend on the processing

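Under the alternatives 442 counts stayed within 1.5 times of the value reported and 30 did not. Of the member values 104 came to pass, 40 no longer passed and 43 changed sign with the reported or the alternative value past the threshold. The other 4643 kept direction and side of the threshold, or changed sign with neither value past it. VEGFA with IL-13 was such a case, at -0.13 to 0.20 with single libraries left out. The cause was not tested for any. Depth is unknown, so low values are limited by rounding to 1 decimal.

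With median-of-ratios scaling D3 over monolayer had 4061 genes higher and 4051 lower and turned PKM (0.19), P4HA2 (0.33) and KDM3A (0.28), D11 over monolayer had 4902 genes higher and 4915 lower, 1 member lower and turned ENO1 (0.55), PKM (0.34) and HIF1A (0.24), and IL-13 had 2348 genes higher and 2521 lower with 1 member higher and 23 lower. With quantile normalization D3 over monolayer had 3773 genes higher and 4353 lower and turned PFKFB4 (0.33), GAPDH (-0.076), P4HA2 (0.33) and KDM3A (0.315), D11 over D3 had 7 members lower and turned TPI1 (-0.35), GAPDH (-0.0065), PGAM1 (-0.19) and PKM (-0.48), D11 over monolayer had 4351 genes higher and turned GAPDH (-0.083) and DDIT4 (-0.054), and IL-13 had 2320 genes higher and 2502 lower. Without mitochondrial transcripts D11 over D3 had 1663 genes higher and 8018 lower with 10 members lower and turned HK1 (-0.14), GPI (-0.38), ALDOC (-0.36), TPI1 (-0.17), GAPDH (-0.051), PGK1 (-0.18), PGAM1 (-0.21) and PKM (-0.50), and D11 over monolayer had 1479 genes higher, 6 members lower and turned PFKL (-0.48) and EPAS1 (-0.54). Array weights gave 7 members lower in D11 over D3 and turned GPI (-0.48), TPI1 (-0.042), PGK1 (-0.27), PGAM1 (-0.26) and PKM (-0.29).

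Within batch 1 D3 over monolayer had 14 members higher and 12 lower and turned ALDOA (-0.10), TPI1 (-0.068), GAPDH (-0.14), PGK1 (-0.016), PGAM1 (-0.31), ENO1 (-0.48), LDHA (-0.18), DDIT4 (0.67) and AK4 (-0.27), and within batch 2 D11 over monolayer turned ENO1 (0.67), PKM (0.018) and VEGFA (-1.315). With genes at a mean of 5 TPM or more, which leaves fewer genes to test, 1031 were higher and 4994 lower for D3 over monolayer, 2656 and 2685 for D11 over D3, 1660 and 4606 for D11 over monolayer, and 613 lower with IL-13. IL-13 within batches was not run.

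Same-numbered libraries of different groups correlated in their deviations at -0.44 to 0.36 (D3 and monolayer), -0.16 to 0.16 (D11 and D3) and -0.02 to 0.06 (D11 and monolayer), so the numbers were not taken as pairs; with a replicate block the members counted 22 higher and 7 lower, 30 higher and 4 lower, and 34 higher and 3 lower, and PGK1 (0.31) and PGAM1 (0.32) no longer passed for D11 over D3. Leaving out 1 library at a time gave 22 to 24 members higher and 7 to 9 lower for D3 over monolayer. For that comparison PGAM1 passed without any one of monolayer libraries 1, 2, 3, 5 and 7 or D3 libraries 2 and 9 (0.29 to 0.32), BNIP3L (0.25 and 0.23) and P4HA1 (0.20 and 0.21) without D3 library 7 or 8, and P4HA2 (-0.20) and KDM3A (-0.20) without D3 library 4. For D11 over D3 PGK1 did not pass without untreated D11 library 7 (0.32, limma adjusted p = 0.0548). With IL-13 P4HA1 did not pass without IL-13 library 2 (-0.28, limma adjusted p = 0.0616), and ANKRD37 passed without untreated D11 library 2 (-0.68) and EGLN3 without IL-13 library 3 (-0.24).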
